A study of Mus musculus with 23 samples.

Results

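A set of 50 of 118102 regions of open chromatin in the mouse maxillary mesenchyme were nearest to Meis1, Meis2, Meis3, Pbx2 or Pbx3, which encode homeodomain transcription factors of the TALE class. Open chromatin was mapped with ATAC-seq, in which the Tn5 transposase inserts sequencing adapters where DNA is accessible, and 1 list of peaks from each of 9 samples was used. Overlapping peaks (1 bp or more) of the 9 lists were merged, which gave the regions. A region belonged to a gene when that gene was its nearest protein-coding gene, with a distance of 0 inside the gene body and of at most 100 kb outside it. The regions were thus chosen by their peak calls, and the calls of a single region are given as a description. Meis1 had 14 regions, Meis2 17, Meis3 3, Pbx3 16 and Pbx2 0. For Meis1 and Meis2, regions 100 to 500 kb away were also looked at, and Meis1 had 16 of them and Meis2 0. On its 3′ side Meis2 has the gene BC052040 82.5 kb away, so no region beyond 100 kb there could be nearest to Meis2. On its 5′ side the next gene, Tmco5, is 811 kb away. Some regions beyond 100 kb could be nearest to Meis2 there, and none was found. Positions are those of the mm10 build.

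The maxillary prominence is the facial swelling from which the upper jaw and palatal shelves arise. The samples came from wild-type C57BL/6 embryos of embryonic days 10.5 (E10.5), 11.5 (E11.5) and 12.5 (E12.5), with 3 biological samples per stage and no genetic or drug treatment in any group. The ectoderm had been peeled off after an enzyme digest, so that the mesenchyme remained, and how many embryos made up a sample is not stated in those sources used here. The series follows the development of this tissue and the regulators behind it.

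Meis and Pbx proteins carry a homeodomain with a short extra loop. A Pbx protein binds DNA side by side with a Meis or Prep partner, and these pairs serve as cofactors of Hox proteins along most of the body axis. The mesenchyme of the maxillary prominence derives mostly from neural crest that does not express Hox genes, and there the TALE factors act with other partners. In the mouse, loss of Meis2 in the neural crest or of several Pbx genes together gives clefts of the face or palate.

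The promoter windows of Meis1, Meis2, Meis3 and Pbx2 are shown because the calls near the genes' ends differed between the members. Pbx3 had no entry in the promoter annotation used here, so no window of it is shown. Each window runs from 250 bases before to 50 bases after a start annotated by RefSeq on GRCm38.p6, is written 5′ to 3′ on the gene's strand, and has its CpG dinucleotides in capitals. Meis1 lies on the minus strand (chr11:19018920-19019219). The window for Meis2 is on the minus strand (chr2:116064570-116064869), at a start inside the gene body, whose 5′ boundary is at chr2:116067537. That of Meis3 is on the plus strand (chr7:16175145-16175444), as is that of Pbx2 (chr17:34592009-34592308). The lncRNA gene G630016G05Rik starts next to the 5′ end of Meis2 on the plus strand (chr2:116066975-116067274) and is included because a region covers its window and none covers that of Meis2.
Meis1: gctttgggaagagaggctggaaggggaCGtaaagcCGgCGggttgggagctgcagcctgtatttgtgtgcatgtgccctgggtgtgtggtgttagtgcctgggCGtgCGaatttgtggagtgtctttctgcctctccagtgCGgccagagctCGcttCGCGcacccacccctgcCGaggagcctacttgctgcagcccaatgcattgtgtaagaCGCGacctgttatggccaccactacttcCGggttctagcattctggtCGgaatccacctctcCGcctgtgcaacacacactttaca
Meis2: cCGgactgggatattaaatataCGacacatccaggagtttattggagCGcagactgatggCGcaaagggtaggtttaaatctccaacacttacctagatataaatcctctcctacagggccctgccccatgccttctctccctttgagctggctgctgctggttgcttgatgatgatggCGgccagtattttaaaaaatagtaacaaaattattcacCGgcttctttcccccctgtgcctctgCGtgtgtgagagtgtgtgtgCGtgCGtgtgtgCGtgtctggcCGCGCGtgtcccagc
Meis3: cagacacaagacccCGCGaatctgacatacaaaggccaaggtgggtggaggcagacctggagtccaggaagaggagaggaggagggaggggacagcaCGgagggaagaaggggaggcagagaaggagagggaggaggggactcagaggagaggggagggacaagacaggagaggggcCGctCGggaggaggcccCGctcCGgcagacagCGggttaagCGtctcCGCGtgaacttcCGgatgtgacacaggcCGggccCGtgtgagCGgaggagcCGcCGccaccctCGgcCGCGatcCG
Pbx2: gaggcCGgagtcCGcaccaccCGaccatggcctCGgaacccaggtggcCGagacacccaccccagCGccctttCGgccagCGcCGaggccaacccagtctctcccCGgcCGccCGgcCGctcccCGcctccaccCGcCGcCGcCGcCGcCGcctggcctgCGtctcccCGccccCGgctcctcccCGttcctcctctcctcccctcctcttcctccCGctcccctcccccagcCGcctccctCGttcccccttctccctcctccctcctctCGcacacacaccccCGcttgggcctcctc
G630016G05Rik: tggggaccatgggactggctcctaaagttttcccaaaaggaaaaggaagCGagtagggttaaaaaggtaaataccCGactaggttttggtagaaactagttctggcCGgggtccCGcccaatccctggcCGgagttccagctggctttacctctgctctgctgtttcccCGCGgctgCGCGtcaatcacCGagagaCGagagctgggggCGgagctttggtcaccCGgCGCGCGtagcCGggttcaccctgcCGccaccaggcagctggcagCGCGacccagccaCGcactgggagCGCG

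The Meis1 window had 15 CpGs, the Meis2 window 13, the Meis3 window 21, the Pbx2 window 29 and the G630016G05Rik window 23, against a median of 7 over 32817 RefSeq promoter windows of the same length. The Pbx2 window was 76.0% GC, and 87.1% of all windows had fewer CpGs. Matches were searched on both strands for the Meis core site TGACAG, the Pbx and Hox pair site TGATNNAT and the joint Pbx and Meis or Prep site, which is TGAT followed directly by the Meis core site. None of the 5 windows held these letters, against 19.2%, 8.86% and 0.222% of all windows for the core site, the Hox pair site and the joint site.

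The calls near the starts and ends of these genes ran from no list to all 9. Starts and ends here are the outer ends of the gene body. Within 1 kb of a gene start or end, the most often called region was called by 9 lists at Pbx3, 5 at Meis1, 4 at Meis2, 1 at Meis3 and 0 at Pbx2. Among all 21627 protein-coding genes, 5.94% had such a region called by 9 lists and 34.6% had none called by any list. The whole Meis1 window lay inside a region (chr11:19018826-19019255) that E11.5 samples 2 and 3 called and no E10.5 or E12.5 sample did. Of the Meis3 window, 239 bases lay in a region called by E11.5 sample 2 and E12.5 sample 2. That region lay 1044 bp inside the 5′ boundary of Meis3 and so outside the 1 kb limit. The region counted for Meis3 lay at its 3′ end. No region touched the Meis2 window or the Pbx2 window. The Meis2 window is not at the gene's 5′ boundary, however, and the region called by 4 lists lay at that boundary (chr2:116066916-116067483).

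E10.5 lists held 14886 to 19095 peaks, E11.5 lists 5682 to 41457 and E12.5 lists 19139 to 50361, and the number of reads behind them is not known. E11.5 sample 1 stood apart with the shortest list, 75.4% of whose regions lay within 1 kb of a gene start or end, against 16.2% to 42.9% in the other 8. It called 1 of the 50 regions. The highest fold enrichment, the authors' value at a peak summit over its background, was 5.83 to 7.47 in E10.5 lists, 17.9 to 20.4 in E11.5 lists and 6.62 to 14.7 in E12.5 lists, so folds are read within a list. Each peak also has the caller's −log10 p and, corrected for multiple testing, −log10 q, both larger for stronger peaks. Of 10 mesenchyme marker genes, 1 to 7 had a called region within 1 kb of a gene end in each list, and Prrx1, Prrx2 and Alx4 had one in no list. For other cell types, the most markers called in a list were 2 of 8 for epithelium, 2 of 6 for endothelium, 1 of 5 for blood, 4 of 6 for neurons and glia and 1 of 5 for muscle, and the part of such cells in the results was not tested. Krt5 and Krt14 of epithelium and Ptprc, Gata1 and Hbb-bt of blood had none in any list.

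Most of the 50 regions were called in a single sample. Of them, 35 were called by 1 list only (70%, against 68.8% of all merged regions), and 8 (16%) were called by 2 lists, 2 by 4, 4 by 5 and 1 by all 9. The share called by 5 lists was 8% here and 1.94% among all regions, whereas 0% here were called by 3, 6, 7 or 8 lists, against 5.81%, 1.59%, 1.38% and 1.19% of all regions. Regions called by 1 list were 74 to 448 bp wide with a median of 174 bp, and the 7 called by 4 or more lists were 243 to 1152 bp wide with a median of 666 bp. A region spans all the peaks merged into it, so its width tends to grow with the number of lists that call it. Of the 50, 25 lay inside a gene body. Exons, introns and untranslated regions were not in the annotation used here.

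By stage, 17 regions were called in at least 1 E10.5 sample, 31 in an E11.5 sample and 20 in an E12.5 sample. Such counts depend on list length, so they do not by themselves compare the stages. The 3 lists of E10.5 called 6, 8 and 12 of the 50, those of E11.5 called 1, 20 and 17, and those of E12.5 called 7, 12 and 5. At E12.5 the 50361-peak list of sample 2 called 12, as many as the shorter list of E10.5 sample 3 with its 14886 peaks. Regions called at one stage alone numbered 7 for E10.5 (14%, against 10.97% of all regions), 20 for E11.5 (40%, against 24.0%) and 11 for E12.5 (22%, against 42.7%). Of the 20 called in E11.5 lists alone, 11 were called by sample 2 alone and 7 by sample 3 alone.

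**Figure D1:**
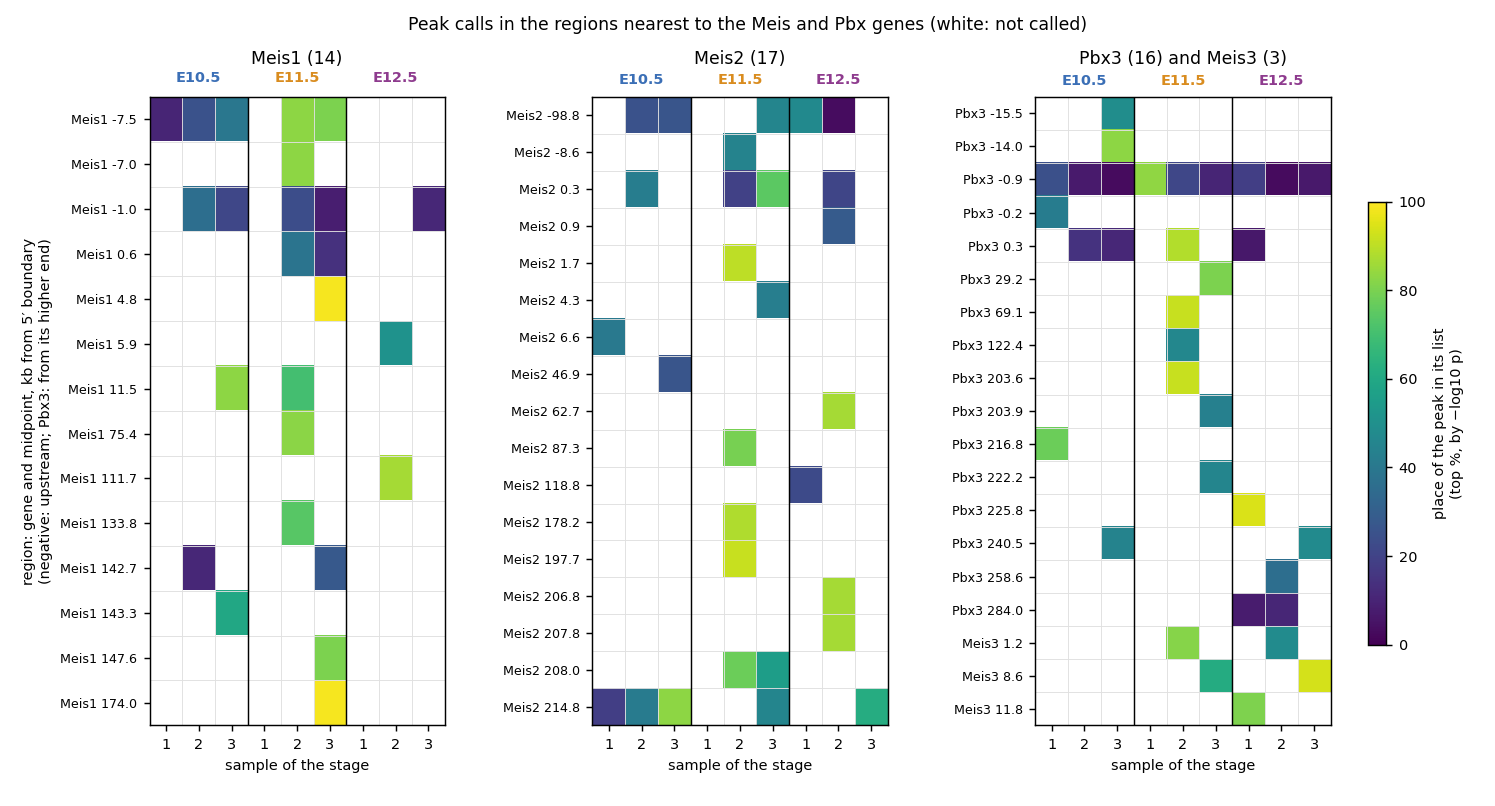
Calls in the 50 regions, 1 row per region, with columns for the 3 samples of each stage. Rows are named by gene and by the midpoint's distance in kb from the gene's 5′ boundary (for Pbx3, whose strand was not in the promoter table, from the end with the higher coordinate). The colour gives the place of the region's best peak in its list (dark: near the top by −log10 p; white: not called). A Pbx3 region is filled in all 9 columns, and the E12.5 columns of Meis1 hold 3 filled cells.

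Meis1 encodes the Meis family member best known from blood stem cells, limb and eye. Its regions were called less often in the E12.5 lists than in the E11.5 lists, relative to what the length of each list predicts. The E10.5 lists called 1, 3 and 4 of its 14 regions (samples 1, 2 and 3), where 1.77, 2.24 and 1.59 calls were expected. The E11.5 lists called 0, 7 and 7, where 0.484, 3.00 and 4.68 were expected. The E12.5 lists called 0, 2 and 1, where 3.10, 5.94 and 2.19 were expected. All 3 E12.5 lists were therefore under their expected number. E11.5 samples 2 and 3 were over it and E11.5 sample 1, with the shortest list, was under it, so its count of 0 overlapped with the E12.5 counts.

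The expected number comes from a model of how many regions each list calls and in how many lists each region is called. The gap between calls and expected calls, scaled by its expected SD, was compared between stages with limma over 7329 genes with at least 5 regions called by 1 to 8 lists. For Meis1 this standardised difference was −3.05 ± 0.866 (SE) for E12.5 minus E11.5, with an adjusted p of 0.0279 (Benjamini-Hochberg over all genes). Its calls per list averaged 1.00 ± 1.00 at E12.5 and 4.67 ± 4.04 at E11.5 (SD, n = 3 each). In that comparison 2.02% of genes were called with fewer regions at E12.5 and 1.12% with more, that is 148 and 82 genes, so that Meis1 was one of the 148. This split turned under other settings, with 1 gene with fewer and 69 with more for peaks with a −log10 q of 5 or more, 1 and 48 in lists of equal length, 44 and 79 for genes with 10 or more regions, and 43 and 74 when sample 2 of E12.5 was left out. Meis1 itself could not be tested under the first 2 of these, and in genes with 10 or more regions it passed with the same difference (adjusted p = 0.0356). Fewer cells with a region open and less opening in each cell cannot be told apart in such bulk samples. Sequencing depth is not known, and its part in the Meis1 difference was not tested.

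The Meis1 call rested on few lists. It was lost without E11.5 sample 2 (−2.28, adjusted p = 0.367), without E11.5 sample 3 (−3.02, adjusted p = 0.0746), without E12.5 sample 1 (−2.92, adjusted p = 0.103) and without E12.5 sample 2 (−2.85, adjusted p = 0.0884). Regions within 1 kb of a gene start or end made up 16.2%, 17.2% and 30.5% of the E12.5 lists and 75.4%, 42.9% and 30.5% of the E11.5 lists. With list odds fitted apart for such regions and for the others, the difference was −3.03 ± 0.885 (SE, adjusted p = 0.0433), and the split over all genes was 30 with more against 165 with fewer. Of the marker genes, Erg of endothelium (3.23, adjusted p = 0.0183) and Pax7 of muscle progenitors (3.15, adjusted p = 0.02) had more calls in the same comparison, and no mesenchyme marker passed.

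For E12.5 minus E10.5 the Meis1 difference was −2.55 ± 0.866 (SE) and missed the threshold after adjustment (adjusted p = 0.342). In that comparison limma called 1 gene with more regions (0.0136%) and 0 with fewer (0%), and 640 genes had an unadjusted p under 0.05. For E11.5 minus E10.5 it was 0.50 ± 0.866 (SE, adjusted p = 0.913), against a background of 0.164% of genes with more and 0.0136% with fewer regions at E11.5.

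**Figure D2:**
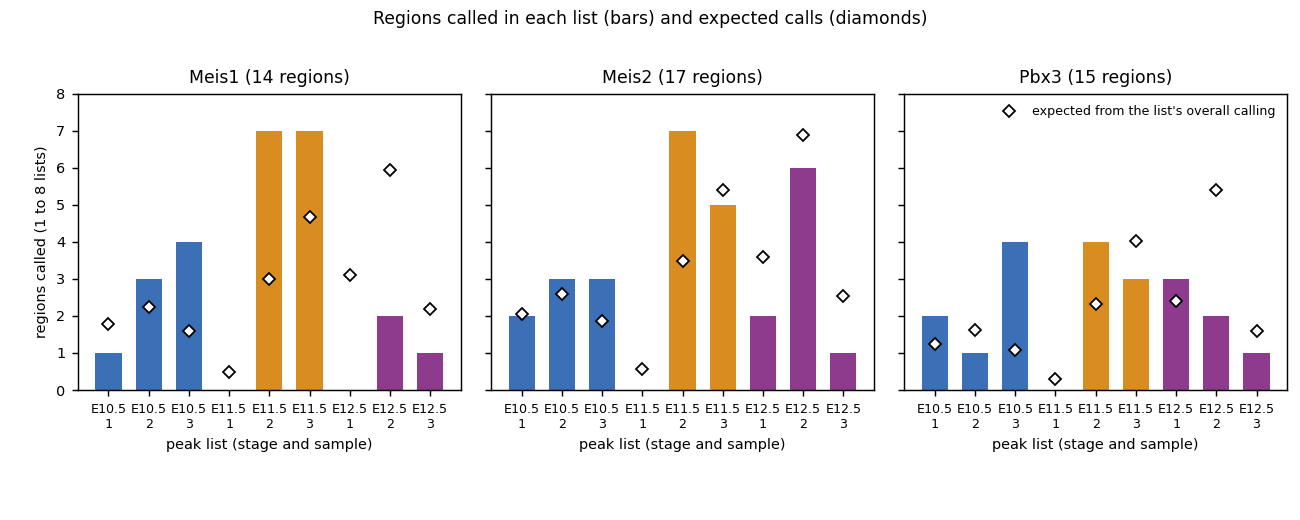
Bars give the number of variable regions (called by 1 to 8 lists) of Meis1, Meis2 and Pbx3 that each list called, and diamonds the number expected from that list's calls genome-wide and the number of lists calling each region. At Meis1 the E12.5 bars stand at 0, 2 and 1 with diamonds at 3.10, 5.94 and 2.19. In all 3 panels E11.5 sample 1 has no bar.

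Within 100 kb, the most often called Meis1 regions lay around its 5′ end. One of them was called at E10.5 and E11.5 but in no E12.5 sample. It lay 7.13 kb upstream (chr11:19026785-19027489), was called by all 3 E10.5 samples with folds of 4.36, 3.07 and 2.75 and by E11.5 samples 2 and 3 with folds of 3.88 and 2.88. Its peaks ranked in the top 10.3%, 25.2% and 39.7% of the E10.5 lists by −log10 p, and in the top 83.0% and 80.2% of the E11.5 lists, so they were among the weaker peaks of the E11.5 lists. It was the 1 of the 50 regions (2%) lost between E12.5 and E10.5, meaning called by no list of the later stage and by all 3 of the earlier one, and 0.307% of all merged regions were lost in that way. Of the 50, 0 were gained in this comparison (0.478% of all regions). None was gained or lost between E12.5 and E11.5 (0.561% and 1.23% of all regions) or between E11.5 and E10.5 (0.643% and 0.149%). E11.5 sample 1 called only the Pbx3 region that all 9 lists called, so no region could be lost in the first of these comparisons or gained in the second. Without that sample, 3 of the regions were lost between E12.5 and E11.5 and 2 were gained between E11.5 and E10.5. Among the 2291 regions called by 5 lists, 5.33% had these stage counts.

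Closer to the gene, 0.654 kb upstream of its 5′ boundary, a region (chr11:19020305-19020970) was called at all 3 stages. E10.5 samples 2 and 3 called it with folds of 2.89 and 3.00, E11.5 samples 2 and 3 with 6.47 and 6.38, and E12.5 sample 3 with 3.65. Within their lists the peaks of E10.5 samples 2 and 3 ranked in the top 36.2% and 21.3%. Those of E11.5 samples 2 and 3 ranked in the top 23.7% and 8.35%, and that of E12.5 sample 3 in the top 11.1%. The region over the printed Meis1 window, 396 bp inside the gene, had folds of 5.12 and 4.93 in E11.5 samples 2 and 3. Both regions still had peaks in those 2 samples when only peaks with a −log10 q of at least 5 were kept, and no E10.5 or E12.5 peak of either passed that limit. The limit is not alike across stages, since the highest −log10 q was 25.6 to 38.5 in E10.5 lists, 116 to 145 in E11.5 lists and 21.3 to 60.1 in E12.5 lists. Beyond the 3′ end, 3.09 kb away, a region chosen after its values were seen (chr11:18876480-18877336) lay in the lncRNA gene 8430419K02Rik and was called by E10.5 sample 2 (fold 3.53) and E11.5 sample 3 (fold 3.84). The other 10 Meis1 regions were called by 1 list each, apart from 1 called by 2.

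Meis1 stands alone, with its nearest protein-coding neighbours 927 kb (Etaa1) and 905 kb (Spred2) away. Of the 16 regions found 100 to 500 kb from it, 10 lay upstream and 6 downstream, 13 were called by 1 list, 2 by 2 and 1 by 6. The 6-list region, 233 kb beyond the 3′ end (chr11:18646286-18647840) and 156 bp from an annotated snoRNA, was called by E10.5 samples 2 and 3 with folds of up to 2.71 and 2.67 and by E11.5 sample 3 with a fold of 3.68. All 3 E12.5 samples called it, with folds of up to 4.60, 2.90 and 3.51, whereas no region at the 5′ end was called by more than 1 of them. Of the 1881 regions called by 6 lists, 13.4% had the same stage counts. Called by E11.5 samples 2 and 3 alone were a region 165 kb downstream (chr11:18714739-18715720), with folds of 7.34 and 4.49, and one 414 kb upstream (chr11:19433698-19434376), with folds of 7.59 and 2.88, both named after their values were seen. In all, an E10.5 list called 3 of the 16, an E11.5 list 10 and an E12.5 list 5. These counts are not set against the share over all regions, so they do not compare the stages. The nearest region outside the 100 kb limit lay 101 kb upstream (chr11:19120166-19120566) and was called by E11.5 sample 2 alone. With genes given all regions within 500 kb, a setting chosen after seeing the data, the Meis1 difference was −3.29 ± 0.902 (SE) for E12.5 minus E11.5 (adjusted p = 0.02).

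**Figure D3:**
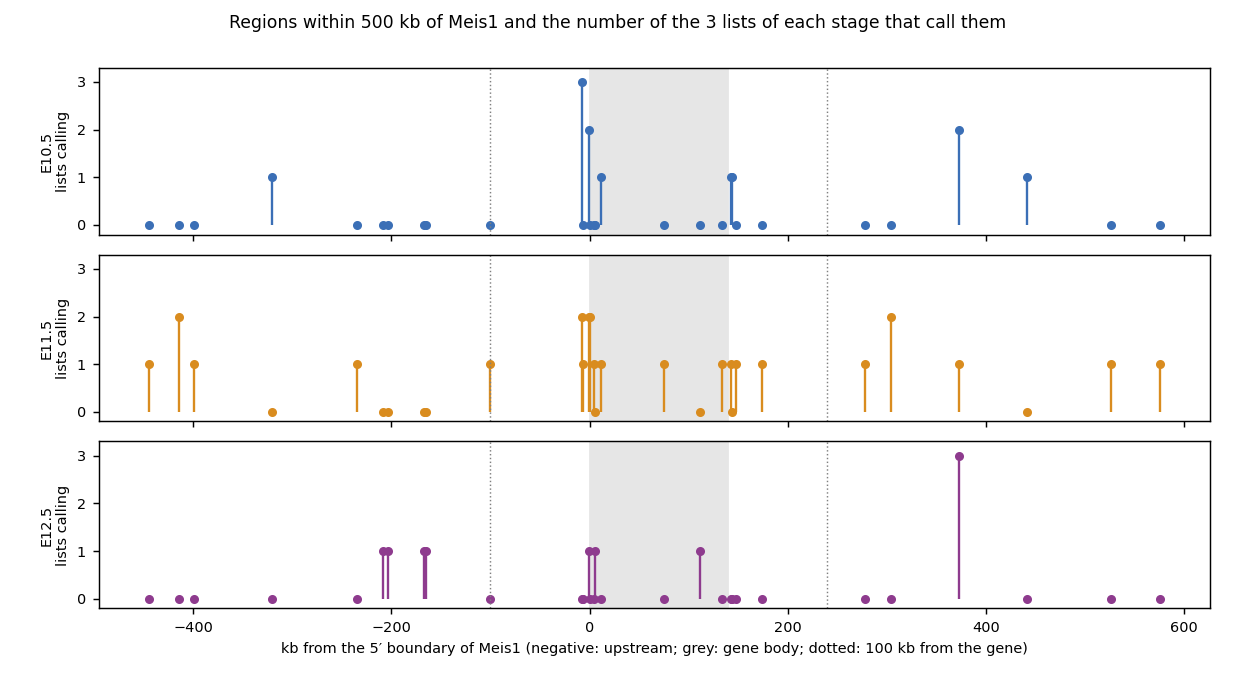
Regions within 500 kb of Meis1 (grey band) by distance in kb from its 5′ boundary, with the number of the 3 lists of each stage that call them on the vertical axis (0 to 3). E11.5 shows calls on both flanks. At E12.5 the tallest stem, at 3 lists, is the region 233 kb beyond the 3′ end, and the regions at the 5′ end reach 1 list.

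Meis2, which acts in the neural crest and palate, had the most regions of the 5 genes and no change between stages past the threshold. Of its 17 regions the E10.5 lists called 2, 3 and 3, the E11.5 lists 0, 7 and 5, and the E12.5 lists 2, 6 and 1. The expected numbers were 2.06, 2.60 and 1.85 for the E10.5 lists, 0.563, 3.48 and 5.40 for E11.5, and 3.60, 6.89 and 2.55 for E12.5. All 3 E12.5 lists were again under their expected number, and the counts of the stages overlapped. The standardised difference was −1.37 ± 0.847 (SE) for E12.5 minus E11.5 (limma adjusted p = 0.413), −1.32 for E12.5 minus E10.5 (adjusted p = 0.661) and 0.05 for E11.5 minus E10.5 (adjusted p = 0.993).

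The region at the 5′ end of Meis2 lay 54 bp inside the gene (chr2:116066916-116067483) and held the whole G630016G05Rik window. It was called by 4 lists, with a fold of 2.55 in E10.5 sample 2, 5.89 and 2.70 in E11.5 samples 2 and 3 and 2.84 in E12.5 sample 2. Its neighbour 724 bp inside the gene (chr2:116066459-116066813) was called by E12.5 sample 2 alone, as was the region 443 bp past the 3′ end (chr2:115860662-115860821). A region 8.31 kb past the 3′ end (chr2:115852549-115852950), singled out after its values were seen, was called by all 3 E10.5 samples with folds of 3.88, 2.76 and 2.42, by E11.5 sample 3 with 3.36 and by E12.5 sample 3 with 2.89. Among regions called by 5 lists, 3.19% had its stage counts.

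The farthest Meis2 region lay 98.4 kb upstream (chr2:116165930-116166838), just inside the distance limit and 321 bp from an annotated snoRNA; it is named as the member nearest to that limit. E10.5 samples 2 and 3 called it with folds of 3.07 and 2.92, E11.5 sample 3 with 3.36 and E12.5 samples 1 and 2 with 3.72 and 3.50. In E12.5 sample 2 its peak ranked in the top 3.19% of the list. The other 12 Meis2 regions were called by 1 list each, apart from 1 called by E11.5 samples 2 and 3, and 11 of the 17 lay inside the gene body.

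Meis3, known from Xenopus embryos for hindbrain patterning, had 3 regions, all inside its 12.5 kb gene body and none called at E10.5. The region over the printed window (chr7:16175056-16175383) had folds of 3.37 in E11.5 sample 2 and 2.11 in E12.5 sample 2. A second (chr7:16182473-16182759) had folds of 2.64 in E11.5 sample 3 and 2.17 in E12.5 sample 3. The last, 527 bp inside the gene's 3′ end (chr7:16185727-16185983), had a fold of 2.88 in E12.5 sample 1. Each E12.5 list thus called 1 Meis3 region, and no region was shared by all 3. With fewer than 5 regions Meis3 was not tested, and none of its peaks reached a −log10 q of 5.

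Pbx3, one of the Pbx genes active in the face, limb and nervous system, held the single region of the 50 that every sample called. This region was also the widest, 1152 bp long, and lay 362 bp beyond the end of Pbx3 that has the higher coordinate (chr2:34372407-34373558). Its highest fold was 3.31, 3.25 and 3.57 in E10.5 samples 1 to 3, then 4.17, 6.62 and 5.16 in the E11.5 samples, and 4.26, 3.40 and 3.56 in the E12.5 samples. Of all merged regions, 1.02% were called by 9 lists. With each list kept to its 5682 best peaks, all 9 still called it, and with a −log10 q of at least 5 the number was 6. No other of the 50 regions was called by more than 3 lists under either of these limits. The list of E11.5 sample 1 has 5682 peaks in all, so the first limit removed none of them. Its peak in this Pbx3 region ranked in the top 83.5% of that list.

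Beside it lay a region 161 bp inside the gene (chr2:34371642-34371884), called by E10.5 samples 2 and 3 with folds of 2.97 and 3.13, by E11.5 sample 2 with 3.27 and by E12.5 sample 1 with 4.81. Another, 76 bp outside the gene (chr2:34372121-34372393), was called by E10.5 sample 1 alone with a fold of 3.07. Far from this end, 83.2 kb past the lower coordinate end (chr2:34087822-34088248), a region inside the lncRNA gene C230014O12Rik was called by E12.5 samples 1 and 2 alone, with folds of 3.91 and 2.66 that ranked in the top 7.81% and 10.9% of those lists; it was picked after its values were seen. Of the 16 Pbx3 regions, 12 were called by 1 list.

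**Figure D4:**
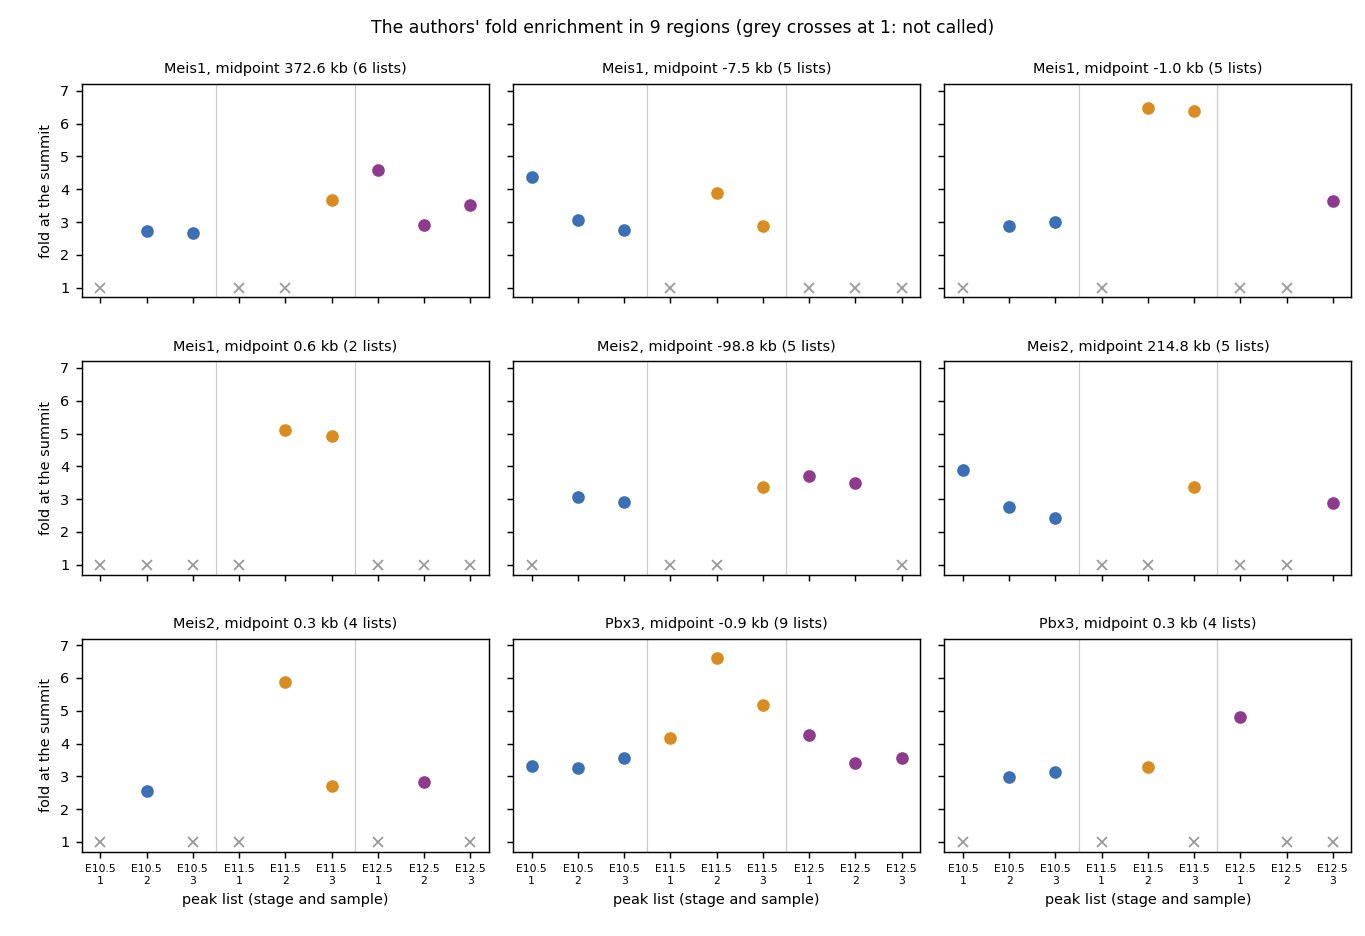
The authors' fold enrichment at the strongest summit (vertical axis, a ratio to background) in each of the 9 lists, for the 8 regions called by 4 or more lists, the far Meis1 region among them, and the Meis1 region at 0.6 kb called by 2; panels are named by gene and by the midpoint's distance in kb from the 5′ boundary (Pbx3: from the higher coordinate end). Grey crosses at 1 stand for lists that did not call the region. The Pbx3 region at −0.9 kb has a value in every list, from 3.25 to 6.62.

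The 15 Pbx3 regions called by 1 to 8 lists showed no stage difference past the threshold. The E10.5 lists called 2, 1 and 4 of them, the E11.5 lists 0, 4 and 3, and the E12.5 lists 3, 2 and 1. At E12.5, sample 1 lay over its expected 2.41 calls, whereas samples 2 and 3 lay under their expected 5.41 and 1.59. The standardised difference was −0.69 ± 0.863 (SE) for E12.5 minus E11.5 (limma adjusted p = 0.732), −1.72 for E12.5 minus E10.5 (adjusted p = 0.566) and −1.03 for E11.5 minus E10.5 (adjusted p = 0.776). Whether Meis1 differs from Meis2 or Pbx3 in its change was not tested.

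Pbx2, a broadly expressed partner of Meis proteins, had no region nearest to it in any of the 9 lists. Its promoter window is the richest in CpGs of the 5 printed windows, which include G630016G05Rik but not Pbx3. The gene is 5.14 kb long and closely packed, with Gpsm3 0.505 kb and Ager 0.06 kb away. The nearest regions lay 4.61 kb away on the lower side (chr17:34587130-34587650), assigned to Notch4 and called by E11.5 samples 2 and 3, and 6.11 kb away on the higher side (chr17:34603509-34604442), assigned to Agpat1 and called by 8 lists. A region that is not called may still be open, since a list holds only peaks past the authors' threshold.

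Other TALE genes showed 1 change. Of 12 (Pbx4, the Prep genes Pknox1 and Pknox2, Tgif1, Tgif2, the 6 Irx genes and Mkx), 11 could be tested. Mkx, a regulator of tendon cells, had fewer calls in the E12.5 lists, against the E11.5 lists (difference −3.11 ± 0.842 (SE), limma adjusted p = 0.0203), and no other passed in any comparison. Without adjustment, Irx6 and Mkx had p under 0.05 for E12.5 minus E10.5, and Irx2 for E11.5 minus E10.5. The median difference of the 11 was 1.28 for E12.5 minus E11.5, against 0.28 over all genes tested, so the list's median was above 0 while Meis1 and Mkx were below it. Of 14 Hox genes, the classic partners, 7 were tested and 0 passed in limma in any comparison (1 to 3 with an unadjusted p under 0.05), with a median of 1.03 for E12.5 minus E11.5. Of 5 genes tied to Pbx or Meis proteins in the face (Wnt9b, Wnt3, Trp63, Snai1, Hoxa2), 1 (Snai1) could be tested, and it did not pass in limma, also without adjustment.

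The 9 standardised residuals of each gene were also set beside those of the 3141 genes with at least 10 variable regions. The pattern of Meis1 was most like those of Zmynd11 (Pearson r = 0.933 over 9 lists), Kif5c (0.925) and Sertad2 (0.923). For Meis2 they were Mecom (0.97), Veph1 (0.917) and Frem1 (0.916), and Pbx3 was close to Tmem30b (0.943) and Slc25a12 (0.937). These values describe close matches among many genes over the same 9 lists and carry no test.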

How the data were processed

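ATAC-seq libraries of 9 biological samples (23 runs) gave 1 peak list each. Per the submitters' processing notes, MACS2, Bowtie2 and deepTools 3.3.1 were used with mm10. Not given in the sources used here are read filters, the transposase shift and the calling threshold. Each deposited list holds a fold enrichment (ratio) at the summit, a −log10 p and a −log10 q per peak, all the authors' own, used here for ranks, filters and description inside 1 list. Depth is not known from the files, so no counting interval can be given.

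Peaks on the 19 autosomes and chromosome X were merged across lists (118102 regions) and assigned to 21627 RefSeq protein-coding genes (GRCm38.p6). Expected calls came from an additive logit (Rasch) model of list and region, conditional on the number of calling lists, so that being called at all favours no stage. Standardised residuals of genes with at least 5 regions called by 1 to 8 lists were tested with limma 3.58.1 (R 4.3.3) over all 9 lists, Benjamini-Hochberg threshold 0.05. The script was run on calls simulated from the fitted model, for E12.5 minus E10.5 only. It called 0 genes with no change, 32% of genes with odds changed 8 fold and 66% with odds changed 32 fold. The comparison in which Meis1 passed was not covered. The p-values reflect only how these samples spread, which may be technical, and rest largely on a variance pooled over genes. The other tools were Matplotlib 3.10.9, SciPy 1.17.1, pandas 2.3.3, NumPy 2.4.6 and Python 3.11.15.

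The members and lists were chosen with earlier results of these data known, the Meis1 call among them, so it is no independent support. Named regions lie within 1 kb of a member's start or end, were called by at least 6 lists, were called by all 3 lists of a stage and none of another, or, 100 to 500 kb away, were called by at least 5 lists; the regions nearest to the distance limit, all 3 Meis3 regions and those said to be picked after their values were seen are named besides. Genes of other lists are named where they passed the limma test; Irx2, Irx6 and Snai1, which did not pass, were added after their values were seen, and for each member the genes named as similar are among its 3 closest. Some items are not reported here. Alternatives left out each sample, raised the peak threshold, equalised list lengths, changed merging, distance or region limits, split the list odds or added a replicate block.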

Additional observations from a re-analysis of the deposited data

How the results depend on the processing

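The drop of Meis1 calls in E12.5 against E11.5 lists passed in 13 of 17 alternatives: −3.29 to −2.79 (adjusted p 0.02 to 0.0497, limma) in 8 settings other than leaving out a sample, and −4.02 to −2.28 (adjusted p 0.00753 to 0.367) leaving out 1 sample, where leaving out sample 2 or 3 of E11.5 (−2.28, −3.02) or sample 1 or 2 of E12.5 (−2.92, −2.85) ended the call. These 17 are not independent checks. With genes of 10 or more regions, assignment by summit or the replicate block, the difference stayed at −3.05, since the calls and expected calls of Meis1 did not change. Leaving out an E10.5 sample kept every list of the stages compared, and the 500 kb setting was chosen after seeing the data. Meis1 could not be tested with peaks of a −log10 q of 5 or more or in equal-length lists, which left too few of its regions, nor could Meis2 and Pbx3, which also could not be tested with regions called by 2 to 8 lists. Differences that never passed changed sign: Meis1 for E11.5 minus E10.5 with regions called by 2 to 8 lists (−0.25) and leaving out 1 sample (−0.38 to 1.49), Meis2 for E11.5 minus E10.5 leaving out 1 sample (−0.85 to 0.69), and Pbx3 for E12.5 minus E11.5 within 500 kb (0.17) and leaving out 1 sample (−1.27 to 0.0042). The cause was not tested.

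Of the 50 regions, 12 remained with peaks of a −log10 q of 5 or more and 10 in equal-length lists, by construction, and the 1 region lost at E12.5 against E10.5 was then 0. Leaving out 1 sample, regions lost numbered 1 to 2 for E12.5 against E10.5, 0 to 3 for E12.5 against E11.5 and 0 to 1 for E11.5 against E10.5, and regions gained 0 to 1, 0 to 1 and 0 to 2.

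Genome-wide, limma called 82 genes with more regions in E12.5 than in E11.5 lists and 148 with fewer. The 2 counts became 69 and 1 for peaks with a −log10 q of 5 or more, 48 and 1 for equal-length lists, 30 and 165 for split list odds, 79 and 44 for genes with 10 or more regions, 46 and 57 for regions in 2 to 8 lists, 146 and 228 within 500 kb, and 48 and 104 within 20 kb. Dropping sample 2 of E11.5 gave 9 and 25, and dropping its sample 3 gave 32 and 162. Dropping sample 1, 2 or 3 of E12.5 gave 34 and 60, 74 and 43, or 111 and 123.

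Same-numbered samples did not deviate together (correlations of −0.0962 to 0.0154 over 9 pairs). With the replicate block Meis1 was −3.05 (adjusted p = 0.0208) for E12.5 minus E11.5, and 83 genes had more and 153 fewer calls; no member's call changed. Unknown depth limits every statement about regions that were not called.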

Other observations

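Several of the regions lay in or beside genes for long noncoding RNAs that share the TALE loci. Downstream of Meis1, 3 regions lay inside the lncRNA gene 8430419K02Rik, and 3 others inside the Meis1 body overlapped the lncRNA gene Gm16141. At Meis2, the lncRNA gene G630016G05Rik overlapped the region 54 bp inside the gene and a region 8.48 kb upstream that E11.5 sample 2 alone called with a fold of 5.29, named after its values were seen. No lncRNA in the annotation overlapped a Meis3 region.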
